A study of Mus musculus with 7 samples.

Results

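Of the 23930 genes in the deposited table, 7 were taken by their symbols: the long nuclear RNAs Malat1 and Neat1, the catalytic RNAs Rmrp and Rpph1, the telomerase RNA Terc, and the imprinted RNAs H19 and Meg3. None of them encodes a protein, and each was found as 1 row of the table. The cells were sorted as GFP-positive from hind leg muscle of mice with an inducible Pax7-GFP reporter on a background labelled C57BL/6 in NC1, with a suffix that rises by 1 per library to C57BL/12 in HC4, although the growth protocol calls the animals C57/B6 littermates. All mice received tamoxifen at 12 weeks of age and were kept for 4 weeks in room air (normocapnia, 3 libraries, NC1 to NC3) or hypercapnia (4 libraries, HC1 to HC4, 10% CO2 according to the methods), and cells were collected at 16 weeks. According to the methods, both groups also received cardiotoxin, a toxin that kills myofibers and starts repair, and cells were sorted 3 days later, whereas the labels do not state an injury and the title of the table names 40 hours. The reporter marks cells in which Pax7, the transcription factor of satellite cells, was active while tamoxifen was given, so that their progeny stay labelled. Where nothing says that each library came from a separate animal, p-values measure the spread between these libraries only.

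Malat1 collects in nuclear speckles, the stores of splicing factors, and Neat1 is the scaffold of paraspeckles, nuclear bodies that hold back RNAs and proteins. Rmrp and Rpph1 are the RNA subunits of RNase MRP, which cuts precursor ribosomal RNA, and of RNase P, which trims the leader of precursor tRNA. The 2 enzymes share most of their proteins, and both RNAs are made by RNA polymerase III from promoters that lie upstream of the gene. Terc carries the template that telomerase copies onto chromosome ends. H19 and Meg3 are expressed from the maternal chromosome only, each beside a growth regulator expressed from the paternal one (Igf2 and Dlk1), and in muscle both clusters are known from fetal growth and from satellite cells.

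The libraries held 14527445 (NC3) to 23388710 (NC2) reads, values are reads per 1000000 assigned reads (RPM), and 1 read was worth 0.0428 to 0.0688 RPM. One amplicon reports on each gene, so levels were compared between libraries and not between genes. The 7 RNAs took 2.24% to 3.06% of all reads in 6 of the libraries and 0.45% in NC3. Of the 12 satellite cell markers all but Msc and Calcr were above 3 reads in every library, but at uneven levels, with Pax7 at 268, 8.25 and 4.34 RPM in NC1 to NC3 and between 20.1 and 79.5 RPM in hypercapnia. Macrophage markers, summed over 12 genes, ran from 12369 RPM (NC1) to 35433 RPM (NC3) in normocapnia and from 20218 to 25125 RPM in hypercapnia. Lyz2 alone gave 29108 RPM of the sum in NC3, while 5 of the 12 markers were lowest, or tied for lowest, in that library. One of the 12, Adgre1, was called, at 109, 149 and 70.5 RPM in normocapnia and 151 to 429 RPM in hypercapnia (log2 difference 1.31, SE 0.49, limma adjusted p = 0.915). One of 7 neutrophil markers was called too, Mmp8, at 7.54, 17.0 and 16.7 RPM in normocapnia and 27.0 to 35 RPM in hypercapnia (1.25, SE 0.30, limma adjusted p = 0.809). These are bulk samples, in which fewer cells of a type and less RNA per cell cannot be told apart. HC4 differed from the other libraries in reads on 1299 olfactory, trace amine and vomeronasal receptor genes, which were taken as mostly silent in muscle. Their mean was 3.91 RPM per gene in HC4 and 0.0682 to 0.394 RPM in the other 6.

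None of the 7 RNAs changed between normo- and hypercapnia at the thresholds of the study (p below 0.05 before adjustment together with more than 1.5-fold change; limma on log2(RPM + 1)), beside 2.57% of all 23930 genes. After Benjamini-Hochberg adjustment no gene of the table passed, whereas 4.66% were below 0.05 before it, and DESeq2 called 29 genes (0.121%) and edgeR 0, with or without a filter. In log2 units 5 RNAs were higher in hypercapnia by 0.24 to 1.39 and 2 were lower. The groups did not overlap for Rpph1 and Terc, both higher in hypercapnia, beside 4.09% of 12504 genes that averaged 1 RPM or more that were apart in that direction. The size or the sign of each of the 7 differences rested on 1 library: NC3 for Malat1, Rmrp, Rpph1 and Terc, HC1 for Neat1, NC1 or NC3 for H19 and NC1 for Meg3. The small H19 difference also changed sign without HC2 (0.07).

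**Figure D1:**
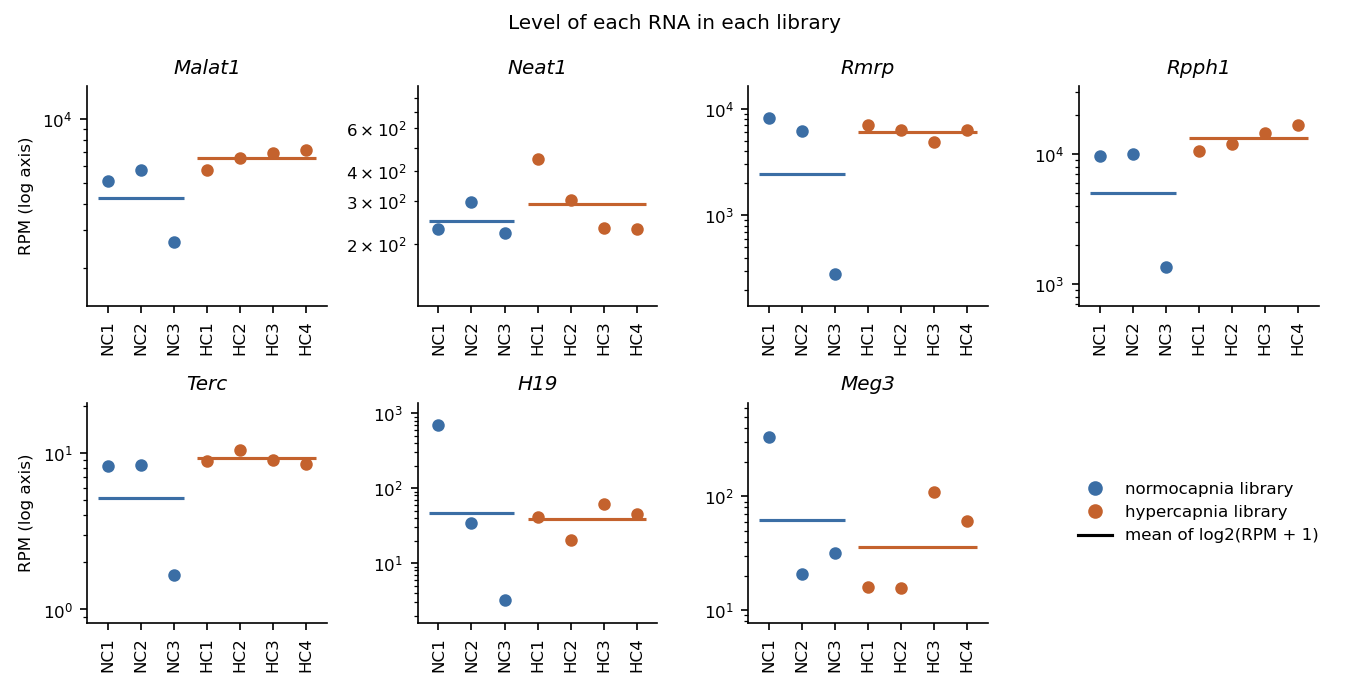
RPM of each of the 7 RNAs (log axis, own scale in each panel) in the 3 normocapnia libraries (blue) and the 4 hypercapnia libraries (orange). Points are single libraries and lines are the group means of log2(RPM + 1) set back to RPM. NC3 is the lowest point for all RNAs except Meg3, and NC1 stands highest for H19 (696 RPM) and Meg3 (335 RPM).

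Malat1, the speckle RNA, was read at 5094, 5764 and 2650 RPM in the controls NC1, NC2 and NC3, and at 5757, 6532, 6942 and 7131 RPM in the hypercapnia libraries HC1 to HC4. All hypercapnia libraries lay above NC1 and NC3, and the groups overlapped through NC2, which lay just above HC1. The difference was 0.62 on the log2 scale (SE 0.29, 95% interval -0.10 to 1.34, limma adjusted p = 0.915, exact permutation p = 0.0571, two-sided, where 0.0286 is the smallest that 35 splits allow). Within hypercapnia the highest Malat1 value was 1.24 times the lowest, and within normocapnia 2.17 times. Without NC3 the difference was 0.28 (SE 0.11), without NC2 it was 0.84 (SE 0.29, limma adjusted p = 0.611), which passed the thresholds before adjustment, and without HC1 it was 0.68 (SE 0.33, limma adjusted p = 0.944), which did not. The groups were apart without either of NC2 and HC1.

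Neat1, the paraspeckle RNA, stood at 231, 298 and 222 RPM in normocapnia and at 449, 303, 232 and 231 RPM in hypercapnia. HC1 was the highest library, the other 6 lay between 222 and 303 RPM, and the groups overlapped. Its difference of 0.24 (SE 0.28, 95% interval -0.45 to 0.92, limma adjusted p = 0.915) fell to 0.03 without HC1 and to 0.13 with DESeq2. Over 7 libraries the median Pearson r of Neat1 with 11 macrophage markers was 0.51 (0.47 without NC1 and 0.56 without NC3), with single markers from -0.15 to 0.83. The macrophage sum of HC1, 25125 RPM, was the highest in hypercapnia. The highest sum of all libraries was that of NC3, 35433 RPM, where Neat1 was lowest. The part of macrophages in the Neat1 values was not tested. Of the nuclear pair, Neat1 was the less reduced in NC3, at 0.839 times the median of the other 6 libraries, where Malat1 was at 0.431 and the median gene at 0.695. The ratio of Malat1 to Neat1 reads therefore ran from 11.9 in NC3 and 12.8 in HC1 to 30.0 in HC3 and 30.8 in HC4, with overlapping groups (exact permutation p = 0.429, two-sided).

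Of the proteins that gather in nuclear speckles, 8 were listed and 7 were in the table. One of them was called: Pnn, a splicing-associated speckle protein, stood at 150, 118 and 268 RPM in normocapnia and at 78.3 to 100 RPM in hypercapnia, lower by 0.92 log2 units (SE 0.29, limma adjusted p = 0.915). Son, the large protein that holds speckles together, was at 556 to 663 RPM in normocapnia and at 421 to 529 RPM in hypercapnia, with groups apart and a log2 difference of -0.35 (SE 0.10, limma adjusted p = 0.911). Srrm2, the other speckle scaffold, was low in NC3 (169 RPM, against 835 to 1100 RPM elsewhere), as Malat1 was, and did not pass. None of the 9 listed paraspeckle proteins in the table was called, among them Sfpq (log2 difference -0.04, SE 0.42) and Ewsr1 (-0.61, SE 0.27), both RNA-binding proteins. The median log2 difference was -0.15 for the speckle and -0.04 for the paraspeckle list, beside 0.16 for all 12504 genes of at least 1 RPM. These medians depended on the scaling: after median-of-ratios scaling they were -0.30, -0.19 and 0.04, and that of all genes was -0.01 after quantile normalization.

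The 2 catalytic RNAs are shown from GENCODE M21 (GRCm38, both on the minus strand), Rmrp in full at chr4:43492788-43493058 and the first 300 of the 319 bases of Rpph1 at chr14:50807468-50807767. They are printed because both were far lower in NC3 than in the other libraries, at 0.0445 (Rmrp) and 0.119 (Rpph1) times the median of the others. Capitals mark the 1 match of each to GGAANGTC, at base 67 of Rmrp and base 60 of Rpph1. On its own strand this motif occurs in 2.54% of 16517 annotated mouse transcripts of 250 to 450 bases, on either strand in 5.06%, and Terc holds it too.
Rmrp: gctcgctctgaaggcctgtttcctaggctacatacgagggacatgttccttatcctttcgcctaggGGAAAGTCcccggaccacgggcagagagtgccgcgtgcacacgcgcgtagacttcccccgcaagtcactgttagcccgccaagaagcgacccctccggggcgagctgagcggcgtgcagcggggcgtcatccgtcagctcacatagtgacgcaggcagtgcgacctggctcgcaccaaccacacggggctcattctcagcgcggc
Rpph1: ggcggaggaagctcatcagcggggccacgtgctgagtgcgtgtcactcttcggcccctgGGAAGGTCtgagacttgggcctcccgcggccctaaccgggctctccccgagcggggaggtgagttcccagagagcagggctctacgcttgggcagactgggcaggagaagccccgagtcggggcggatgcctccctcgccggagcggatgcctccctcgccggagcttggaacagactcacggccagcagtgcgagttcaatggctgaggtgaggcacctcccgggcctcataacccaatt

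Rpph1, the RNase P RNA, gave 9647, 10021 and 1356 RPM in the 3 controls, and in HC1 to HC4 it gave 10596, 12115, 14541 and 16813 RPM. The groups did not overlap, with HC1 just above NC2, and NC3 lay far below both other controls. The difference was 1.39 log2 units (SE 0.78, 95% interval -0.55 to 3.33, limma adjusted p = 0.915), while the exact permutation test gave its smallest p of 0.0286, two-sided. Without NC3 the groups stayed apart, and the difference was 0.44 (SE 0.21, 95% interval -0.11 to 0.99, limma adjusted p = 0.891, exact permutation p = 0.133 where 0.0667 is the smallest of 15 splits). In linear terms the group means were 7008 ± 4898 RPM (SD, n = 3) and 13516 ± 2733 RPM (SD, n = 4).

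Rmrp, the RNase MRP RNA, gave 8168, 6233 and 282 RPM in normocapnia and 7061, 6378, 4859 and 6307 RPM in hypercapnia. NC1 was the highest of all libraries and NC3 the lowest by far, so the 4 hypercapnia values lay between the controls. The difference of 1.32 (SE 1.24, limma adjusted p = 0.915) turned to -0.23 (SE 0.20) without NC3, and it was 0.42 with DESeq2 and 0.42 to 0.45 with edgeR. In that library Rmrp was at 0.0445 times the median of the others, as low as or lower than all but 1.40% of 8229 genes that averaged 10 RPM or more, and Rpph1 at 0.119 times (5.89% of genes). The 282 RPM of Rmrp in NC3 came from 4103 reads. The ratio of Rpph1 to Rmrp reads was 1.18 in NC1 and 4.80 in NC3, with a range of 1.5 to 2.99 in hypercapnia and overlapping groups (exact permutation p = 0.943, two-sided).

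The low reading of both RNAs in NC3 was not shared by most of their proteins. Of the 11 listed proteins of RNase P and RNase MRP all were in the table and none was called, and their median in NC3 was 1.23 times that of the other libraries. Pop5, a protein of both enzymes, was highest in NC3 (144 RPM, against 42.6 to 54.5 RPM elsewhere), and Pop7, which binds both RNAs, was at 27.5 RPM there and 37.5 to 53.4 RPM elsewhere. Rpp25l was the other protein that was lowest in NC3, at 3.3 RPM against 6.38 to 8.24 RPM elsewhere. Their median difference between conditions was -0.15, beside 0.16 for all genes of at least 1 RPM. Other small nuclear and nucleolar RNAs moved either way in NC3: of 8 with a mean of at least 1 RPM, the ratio to the other libraries ran from 0.164 (Snora16a) to 2.41 (Scarna13), and 4 were lowest in NC3. One of these 8, Scarna13, which guides modification of spliceosomal RNA, passed the thresholds, at 945, 534 and 1088 RPM in normocapnia and 351 to 455 RPM in hypercapnia (log2 difference -0.97, SE 0.27, limma adjusted p = 0.877).

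**Figure D2:**
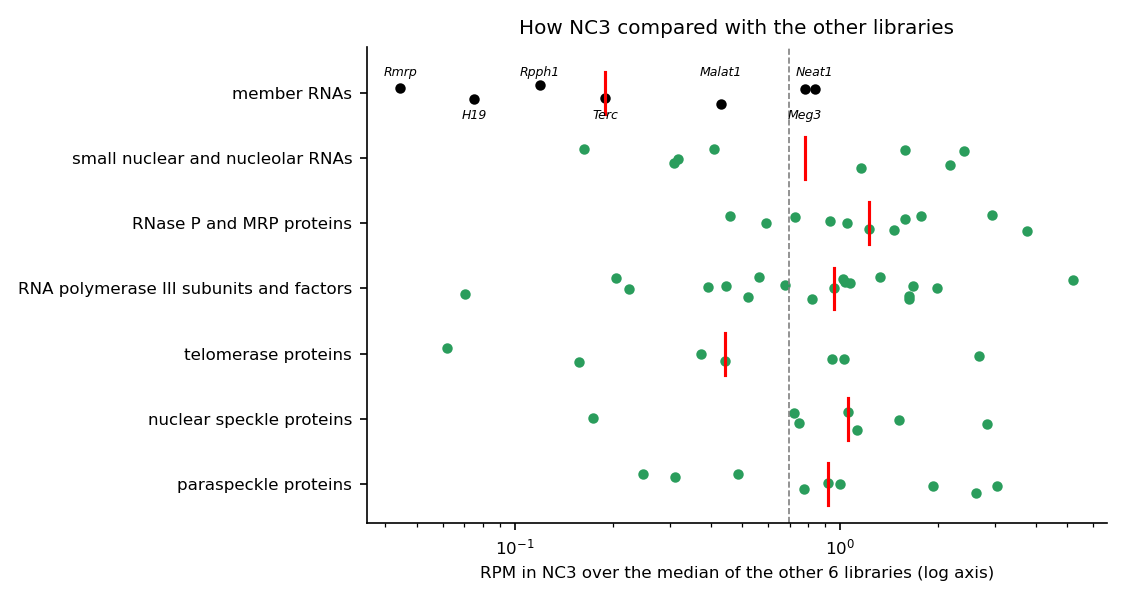
RPM in NC3 divided by the median of the other 6 libraries (log axis), for the 7 RNAs (black, named), for small nuclear and nucleolar RNAs and for the genes of 5 protein lists (green). Red bars are list medians and the dashed line is the median of genes that averaged 10 RPM or more (0.695). Rmrp and Rpph1 lie left of all 11 RNase P and MRP proteins, whose median is 1.23, and Meg3 and Neat1 lie right of the dashed line.

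RNA polymerase III reads Rmrp and Rpph1, and 19 of its subunits and factors were listed and measured. One was called: Snapc3, a subunit of the complex that binds the upstream element of such promoters, was at 57.2, 47.8 and 64.0 RPM in normocapnia and at 32.1 to 40.6 RPM in hypercapnia, lower by 0.62 (SE 0.13, limma adjusted p = 0.712). Brf1, a factor that serves tRNA genes, had a log2 difference of -0.43 (SE 0.14, limma adjusted p = 0.915), within the fold threshold. The other 17 neither passed the thresholds nor separated the groups, and the list's median was -0.16. The lower Snapc3 reading in hypercapnia stood beside Rpph1 values that were higher and Rmrp values that overlapped, and their relation was not tested.

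The regions upstream of both genes are printed because each lies between the RNA gene and a protein gene read in the other direction, whose own transcript was measured too. They were taken from RefSeq promoter windows of Parp2 and Ccdc107 (GRCm38) and turned to the strand of the RNA gene, at chr14:50807768-50807896 and chr4:43493115-43493339, which end 0 and 56 bases before the RNA starts. Capitals mark the octamer ATGCAAAT, known from such promoters, or its reverse complement ATTTGCAT, which lie 93 and 216 bases upstream of the RNA start. On either strand the octamer occurs in 1.74% of 32851 promoter windows of 300 bases.
Rpph1 upstream: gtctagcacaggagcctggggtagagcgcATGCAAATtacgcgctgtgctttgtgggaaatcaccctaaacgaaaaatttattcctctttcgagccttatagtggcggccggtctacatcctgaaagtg
Rmrp upstream: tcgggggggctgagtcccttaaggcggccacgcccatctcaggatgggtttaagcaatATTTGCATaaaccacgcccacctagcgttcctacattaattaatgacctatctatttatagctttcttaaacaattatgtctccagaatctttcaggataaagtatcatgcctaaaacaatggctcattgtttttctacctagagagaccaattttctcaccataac

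Parp2, which starts 129 bases from Rpph1 and encodes a DNA repair enzyme, was at 17.6, 14.3 and 8.95 RPM in normocapnia and at 12.5 to 16.6 RPM in hypercapnia. In NC3 it was at 0.642 times the other libraries, near the median gene, where Rpph1 was at 0.119. Ccdc107 was at 0.703 times the others in NC3, where Rmrp was at 0.0445. Neither neighbour differed beyond its spread between conditions (log2 differences 0.07, SE 0.23, and 0.10, SE 0.26).

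Terc is shown from the RefSeq start of its 397 bases (GRCm38, chr3:96414754-96414833, minus strand), with the telomere template CCTAACCC in capitals, since that is the part telomerase copies. These letters occur in 0.321% of the annotated transcripts of 250 to 450 bases on their own strand and in 0.527% on either strand.
Terc: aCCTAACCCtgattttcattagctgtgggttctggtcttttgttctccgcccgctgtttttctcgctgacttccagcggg
Terc was read at 8.25, 8.34 and 1.65 RPM in NC1 to NC3, from 185, 195 and 24 reads, and at 8.90, 10.5, 9.06 and 8.53 RPM in HC1 to HC4, from 126 to 209 reads. The groups did not overlap, but the gap between NC2 and HC4 was small, and NC3 alone lay well below. The difference of 0.74 (SE 0.48, 95% interval -0.47 to 1.95, limma adjusted p = 0.915, exact permutation p = 0.0286, two-sided) fell to 0.14 (SE 0.08) without NC3. In HC4 the median receptor gene was at 3.38 RPM and 82.8% of receptor genes reached 1 RPM, against 0.616% to 7.85% in the other libraries. Terc has no intron, so that a read from its DNA looks like one from its RNA, and the part of such reads in the 8.53 RPM of HC4 was not tested. Without HC4 the difference was 0.77 (SE 0.57) and the groups stayed apart.

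None of the 7 telomerase proteins in the table was called. Tert, the catalytic subunit, was low, at 0.138 to 0.847 RPM in normocapnia and at 0.562 to 2.64 RPM in hypercapnia, with its highest value in HC4. Dkc1, which binds the 3′ end of Terc, was at 123, 38.1 and 158 RPM in normocapnia and 37.4 to 114 RPM in hypercapnia, and was thus highest in the library where Terc was lowest. Tep1, a telomerase-associated protein, had the smallest p of the list (log2 difference 0.95, SE 0.41, limma adjusted p = 0.915). The median of the list was 0.26, beside 0.16 for all genes of at least 1 RPM.

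**Figure D3:**
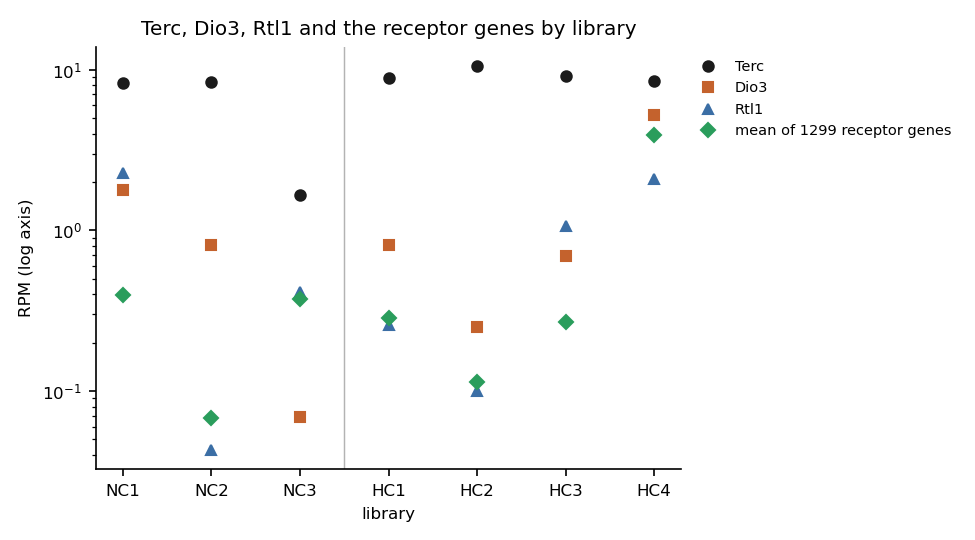
RPM of Terc, of the imprinted genes Dio3 and Rtl1 and the mean over 1299 receptor genes (log axis) in each library. The receptor mean is 3.91 RPM in HC4 and below 0.4 RPM elsewhere, Dio3 is at 5.21 RPM in HC4, and Terc is at 1.65 RPM in NC3 and at 8.25 to 10.5 RPM elsewhere.

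H19, the maternal RNA beside Igf2, was at 696, 34.5 and 3.23 RPM in the 3 controls, and in HC1 to HC4 at 41.0, 20.6, 61.0 and 45.0 RPM. The controls held both the highest and the lowest value, 215 times apart, and enclosed the hypercapnia libraries, which lay within 2.97 times of each other. The log2 difference was -0.23 (SE 1.74, 95% interval -4.58 to 4.11, limma adjusted p = 1.0), and it was 1.71 without NC1 and -1.97 without NC3. Count models gave a larger value: before adjustment DESeq2 called H19 lower in hypercapnia (log2 -2.33, DESeq2 adjusted p = 0.48), beside 3.28% of all genes in that direction. EdgeR without a filter did the same (-2.34, edgeR adjusted p = 0.807), beside 2.68% of genes, and edgeR with a filter did not (-2.30, edgeR adjusted p = 0.758). These models compare group means of reads, and the mean of the controls was 245 ± 391 RPM (SD, n = 3), most of it from NC1, against 41.9 ± 16.7 RPM (SD, n = 4).

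H19 also carries the microRNA miR-675, whose mature forms are shown from RefSeq (GRCm38, minus strand, chr7:142577112-142577133 for 5p and chr7:142577078-142577099 for 3p) as the product that H19 RNA can be cut into. Capitals mark the seeds, bases 2 to 8, which differ between the arms. The panel does not measure these short forms, and H19 reads say nothing of their level.
miR-675-5p: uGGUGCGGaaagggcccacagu
miR-675-3p: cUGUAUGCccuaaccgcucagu

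Igf2, the paternally expressed growth factor of this locus, followed H19 over the libraries, with 165, 9.45 and 0.207 RPM in normocapnia and 6.93, 3.87, 14.2 and 7.51 RPM in hypercapnia. It was among the 3 genes whose log2 values were most like those of H19 (Pearson r = 0.993, Spearman rho = 0.89 over 7 libraries, r = 0.89 without NC1 and NC3), with Cacng1, a subunit of a muscle calcium channel (r = 0.994), and Dcun1d5 (r = 0.994). The ratio of H19 to Igf2 stayed between 3.65 and 5.98 in 6 libraries and was 15.6 in NC3, where Igf2 rested on 3 reads. The groups overlapped in this ratio (exact permutation p = 0.914, two-sided).

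Meg3, the maternal RNA of the Dlk1-Dio3 cluster, was at 335, 20.9 and 32 RPM in normocapnia and at 15.9, 15.5, 109 and 61.1 RPM in hypercapnia. NC1 was again the highest library, NC3 was not low, and the hypercapnia libraries fell into a low pair, HC1 and HC2, and a higher pair, HC3 and HC4. The log2 difference was -0.75 (SE 1.24, 95% interval -3.86 to 2.36, limma adjusted p = 0.946), 0.46 without NC1, -1.28 with DESeq2 and -1.27 to -1.24 with edgeR. In HC3 and HC4 the summed level of 8 endothelial markers was 547 and 411 RPM, against 65.1 and 51.9 RPM in HC1 and HC2, and that of 12 satellite cell markers 1633 and 1375 RPM against 815 and 772 RPM. The same pairs stood apart in the summed markers of fibro-adipogenic cells (2226 and 2648 against 1281 and 1106 RPM), myofibers (1164 and 2097 against 638 and 345 RPM) and neutrophils (329 and 231 against 148 and 105 RPM). The sum of macrophage markers went the other way (20218 and 20596 against 25125 and 21756 RPM). The part of these cell types in the Meg3 values was not tested.

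Like Meg3, its neighbours Rian, Dlk1, Mirg and Rtl1 were highest in NC1. Rian, the next maternal RNA of the cluster, was at 145, 7.18 and 6.82 RPM in normocapnia and 14.6, 9.04, 41.8 and 25 RPM in hypercapnia. Dlk1, the paternal gene, was at 34.8 RPM in NC1 and at 2.13 to 5.0 RPM in the other 6 libraries. Mirg, Rtl1 and Dio3 stayed at or below 5.21 RPM in all libraries, and Ins2, on the far side of Igf2, was at most 1 read in any library. None of the 7 locus genes in the table was called, and Rtl1 and Dio3, each coded within a single exon, read 2.10 and 5.21 RPM in HC4 beside its receptor mean of 3.91 RPM. Among the genes most like Meg3 were Nfia, a transcription factor (r = 0.991), and Phf2, a histone demethylase (r = 0.988).

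In NC1 H19 was at 18.4 times and Meg3 at 12.6 times the median of the other 6 libraries, while the median gene was at 1.13 times. Of 8229 genes that averaged 10 RPM or more, 0.207% were raised as much as H19 and 0.365% as much as Meg3. Of 22 other imprinted genes listed 18 were in the table, none was called, and 12 of them were highest in NC1. Cdkn1c, a maternally expressed inhibitor of the cell cycle, was at 939 RPM in NC1 and at 2.75 to 76.2 RPM elsewhere, and Grb10, an adaptor that restrains insulin signalling, at 435 RPM in NC1 and 15.0 to 114 RPM elsewhere. Igf2r, the paternally silenced receptor that clears Igf2, was nearly even, at 164 to 262 RPM. The median log2 difference of the list was 0.09.

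Satellite cell markers, and those of several other cell types, moved with H19 and Meg3 over the libraries. The sum of the 12 markers was 3891, 997 and 602 RPM in NC1 to NC3, and 11 of the 12 were highest in NC1. Over 7 libraries the median Pearson r with the 11 markers of at least 1 RPM was 0.87 for H19 and 0.83 for Meg3, and 0.78 and 0.64 without NC1, given as a description. For the other RNAs the median r ran from -0.28 (Neat1) to 0.57 (Rmrp), and the order depended on the library left out. Without NC1 Malat1 (0.76), Rpph1 (0.75) and Terc (0.65) were at values like those of H19 and Meg3, whereas without NC3 H19 was at 0.82 and Meg3 at 0.94, against -0.15 for Malat1, 0.13 for Rpph1 and -0.35 for Terc. Markers of other cells had median r of 0.83 (myofiber), 0.67 (fibro-adipogenic), 0.60 (neutrophil), 0.55 (endothelial) and -0.63 (macrophage) with H19. With Meg3 the values were 0.76, 0.45, 0.73, 0.68 and -0.54, and which markers Meg3 was closest to also depended on the library left out. Without NC1 its median r was 0.85 with endothelial, 0.78 with neutrophil and 0.64 with satellite cell markers, and without NC3 it was 0.71, 0.75 and 0.94. Markers of myofibers also stood highest in NC1 (4412 RPM summed over 7 genes, against 239 to 2097 RPM elsewhere), and the macrophage sum was lowest there. The share of any of these cell types in the H19 and Meg3 values was not tested.

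**Figure D4:**
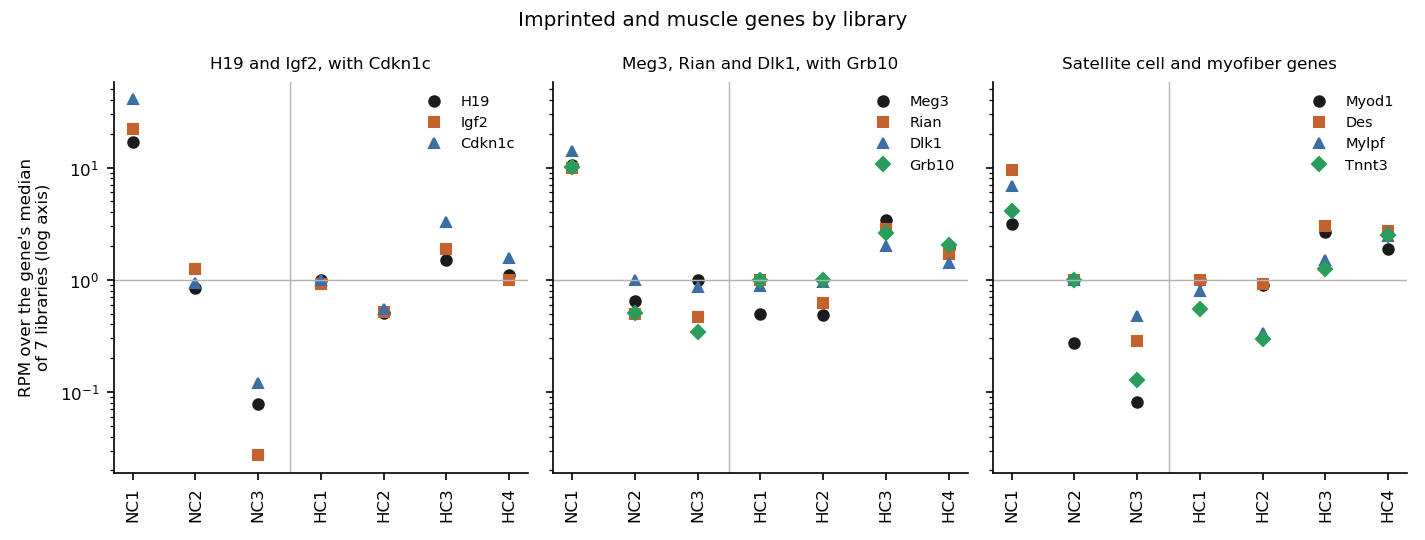
RPM of each gene divided by its own median over the 7 libraries (log axis), for H19, Igf2 and Cdkn1c (left), for Meg3, Rian, Dlk1 and Grb10 (middle) and for 2 satellite cell genes and 2 myofiber genes (right). All 11 genes are highest in NC1, where H19 is at 696 RPM and Des at 1193 RPM. In NC3, H19, Igf2, Cdkn1c and Myod1 lie furthest below their medians.

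Among the 7 RNAs, Malat1 and Rpph1 were the most alike over the libraries (Pearson r = 0.99, Spearman rho = 0.96, r = 0.94 without NC3 and 0.96 without NC1 and NC3). Rpph1 ranked second among 8228 genes for likeness to Malat1, after Men1, a nuclear scaffold protein (r = 0.992), and before Gpr108 (r = 0.987). Among the hypercapnia libraries both were lowest in HC1 and highest in HC4. For Rmrp and Rpph1 r was 0.94 with NC3 and -0.63 without it. For Terc and Rmrp r was 0.98 with NC3 and -0.28 without it. H19 and Meg3 had r = 0.74, 0.29 without NC1, 0.89 without NC3 and 0.79 without both. As many as 1329 genes had r above 0.9 with Rmrp and 6 with Neat1.

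The genes most like the remaining RNAs are given as a description. For Neat1 they were 1700020I14Rik, itself a noncoding RNA (r = 0.982), Itga4, an integrin of blood cells (r = 0.947), and Spp1, the secreted protein osteopontin (r = 0.947), which was at 8888 RPM in HC1 and at 2588 to 4709 RPM elsewhere. For Rmrp they were Pym1, C1d and Txlna (each r = 0.999), for Rpph1 Tbl3, Prkd2 and Wdr4 (0.995 to 0.996), and for Terc Capns1, Tap2 and Trappc12 (0.997 to 0.998). With the 2 libraries farthest from the median left out, r was 0.97, 0.82 and 0.60 for the 3 genes of Neat1, 0.85 to 0.88 for those of Rmrp, 0.82 to 0.91 for those of Rpph1 and 0.62 to 0.70 for those of Terc.

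Mice of both sexes were used according to the methods, and the sex behind each library was not tested. Xist, the RNA that coats the inactive X chromosome, divided the libraries across the conditions: it was at 445 to 701 RPM in NC1, NC2, HC1 and HC2 and at most at 0.125 RPM in NC3, HC3 and HC4. NC3 was thus the one normocapnia library without Xist. In hypercapnia Xist separated HC1 and HC2 from HC3 and HC4, the same pairs into which the Meg3 values fell. Within the 4 libraries with Xist the log2 difference was 0.20 for Rpph1, 0.20 for Terc, 0.18 for Malat1, -0.09 for Rmrp and 0.49 for Neat1, and within the 3 without it 3.53, 1.88, 1.41, 4.29 and 0.06. For H19 the values were -2.38 and 3.66, and for Meg3 -2.36 and 1.32, so the sign turned between the libraries with and without Xist. With NC3 as the only control of its kind, a difference due to that library and one due to the condition cannot be told apart there.

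**Figure D5:**
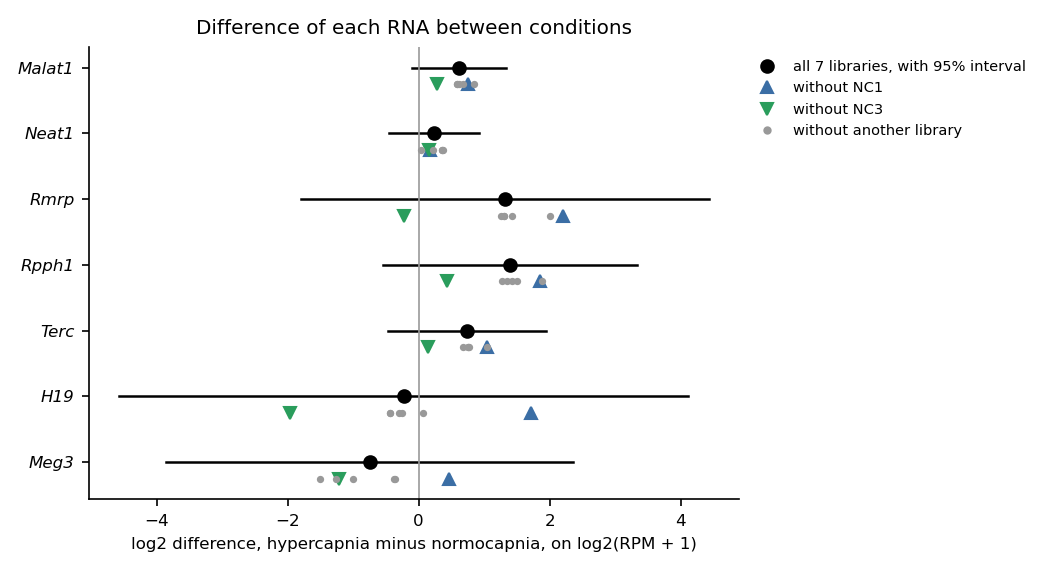
Log2 difference, hypercapnia minus normocapnia, of log2(RPM + 1) for each RNA over all 7 libraries, with its 95% interval (limma, black). Small symbols below each are the values with 1 library left out. All intervals include 0; leaving out NC3 brings Malat1, Rpph1 and Terc to 0.28, 0.44 and 0.14 and Rmrp to -0.23, and leaving out NC1 brings H19 and Meg3 to 1.71 and 0.46.

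Other noncoding RNAs gave no call either: of 38 listed, 25 were in the table, none passed the thresholds, and Tsix was at 0 in all libraries. Snhg15, a host of small nucleolar RNAs, had the smallest p among them and separated the groups, at 33.8 to 46.3 RPM in normocapnia and 25.2 to 28.5 RPM in hypercapnia (log2 difference -0.50, SE 0.11, limma adjusted p = 0.752), below the fold threshold. The median of these 25 was -0.12, beside 0.16 for all genes of at least 1 RPM.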

How the data were processed

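RNA from sorted Pax7-GFP cells was read by the authors with the Ion AmpliSeq mouse transcriptome panel (1 amplicon per gene, Ion Chef, Ion GeneStudio S5 Plus), and 1 table of RPM was deposited, with 1 column per library. According to the submitters' processing notes and the methods, the Transcriptome Analysis Console was used for the study's own comparison. Aligner, build and filters: not given in the sources used here. Whole reads were recovered from the RPM steps (100% of values within 0.05 reads), and library totals were 14527445 to 23388710 reads, so that 3 reads, taken as the floor, were 0.128 to 0.207 RPM. Intervals from reads cover counting error only.

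The members and lists were chosen with earlier results of these data known. Limma 3.58.1 (R 4.3.3) was fitted to log2(RPM + 1) of all 23930 genes in all 7 libraries, without a filter, and 2443 genes at 0 in all libraries were kept. Genes were called at p under 0.05 and fold above 1.5, with Benjamini-Hochberg adjustment over all genes. Fold changes on this scale understate the change of low genes. For single RNAs an exact permutation test over the 35 splits was added, which treats the libraries as exchangeable. HC1 with HC2 and HC3 with HC4 were, however, much closer than any other pair. Their chi-square per degree of freedom, on whole reads, was 24.6 and 27.3, against 104.6 or more for the others. Alternatives were pseudocounts of 0.1 and 5 RPM, leaving out genes that averaged under 1 RPM, scaling by median of ratios, by quantiles or without the members, a prior variance following the mean, edgeR 4.0.16 and DESeq2 1.42.0 on whole reads, each library left out and the replicate block, with Xist as a covariate and the same 6 libraries without the block added after seeing the data. The named genes are the 7 RNAs, the locus genes, Xist, the 3 most abundant and 3 smallest p of each list and the 3 genes most like each RNA among those of at least 10 RPM, of which 1 is not reported here. Outside this rule Pax7, Msc, Calcr, the neighbours Parp2 and Ccdc107, the small nuclear and nucleolar RNAs and Tsix were chosen after values were seen. On simulated libraries limma called 100%, 99.5% and 61% of 200 genes changed 4-fold at dispersions of 0.02, 0.1 and 0.4. The changed genes averaged 10 RPM or more, and all genes shared the same dispersion. These shares therefore do not apply to RNAs as uneven as H19 and Meg3, whose SD in normocapnia was 160% and 138% of the mean, or to Terc, which averaged 7.89 RPM. All 7 symbols matched RefSeq, and 2 of 7 had a promoter window of their own.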

Additional observations from a re-analysis of the deposited data

Results flagged for a closer look

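Among the 7 RNAs and the 7 locus genes in the table, 1 of 14 had a hypercapnia library set apart from the other 3 by Dixon's criterion for groups of 4, which by chance happens in about 1 in 20 groups. It was Dio3, the deiodinase gene at the end of the Meg3 cluster, at 5.21 RPM in HC4 and 0.251 to 0.813 RPM in HC1 to HC3, a gap of 0.887 of the whole range. The sum over the receptor genes was apart in the same library, at 5077 RPM in HC4 and 146 to 368 RPM in HC1 to HC3 (a gap of 0.955 of the range). The part of such reads in the Dio3 value was not tested.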

How the results depend on the processing

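Over 20 alternatives each, Malat1, Neat1, Rpph1 and Terc kept the sign of their difference in all 20, Rmrp and Meg3 in 19 and H19 in 17. Leaving out 1 library gave -0.23 (without NC3) to 2.2 (without NC1) for Rmrp, -1.97 (without NC3) to 1.71 (without NC1) for H19, which was also reversed without HC2 (0.07), and -1.5 (without NC2) to 0.46 (without NC1) for Meg3. With Xist as a covariate, H19 was at 0.11. The number of the 7 RNAs called was 0, and 0 to 1 when 1 library was left out (1 without NC2, Malat1, higher). It was 1 (H19, lower) with DESeq2 and with edgeR without a filter. The 615 genes called in all (343 higher, 272 lower) became 1049 with edgeR without a filter (407 higher), 802 with edgeR with a filter (294 higher, 508 lower), 1304 with DESeq2 (519 higher) and 1316 with the Xist covariate, and 376 (without HC2) to 1990 (without NC1) when 1 library was left out. The cause was not tested. The difference in the sum over receptor genes, 1120 RPM, ran from -75.1 (without HC4) to 1570 RPM when 1 library was left out. The labels give both groups the replicate numbers 1 to 3. Same-numbered libraries correlated at -0.35, 0.50 and -0.04 in their deviations from the group means, and differently numbered ones at -0.42 to 0.45. So few pairs, with deviations from small groups, cannot decide whether the numbers pair the libraries. The fit with the replicate block, on 6 libraries, called 598 genes and 0 of the 7 RNAs, against 477 and 0 in the same 6 libraries without it. The 95% intervals of Rpph1, Rmrp, H19 and Meg3 reached up to 2.36 to 4.44 log2 units, and without NC3 those of Rmrp and Rpph1 ran from -0.75 to 0.30 and from -0.11 to 0.99. Terc in NC3 rests on 24 reads.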
